A study of Mus musculus with 12 samples.

Results

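The carbonic anhydrases described here are Car2, Car4, Car7, Car12, Car13 and Car14, 6 of the 23136 named loci (27914 loci in all) measured in mouse pluripotent cells. They were selected by gene name, and on their levels across the 4 groups below, which were known when the genes were chosen. Their levels and differences are therefore given as a description with no test, and p-values appear only for other genes. Polyadenylated RNA, selected with oligo-dT, of C57 Bl/6J cells was sequenced in 12 libraries, 3 per group. Wild-type embryonic stem cells (ESC) were kept naive, the state of the epiblast before implantation, in serum-free N2B27 medium with LIF and with inhibitors of MEK (PD0325901, 1 uM) and GSK3 (CHIR99021, 3 uM). Wild-type epiblast-like cells (EpiLC), a model of the epiblast after implantation, were made from such ESC over 48 h on fibronectin with Activin A (20 ng/ml), Fgf2 (12 ng/ml) and the serum replacement KOSR (1%). The other groups were ESC with a Sirt1 knockout (Sirt1KO) and ESC that carry this knockout and in which Otx2 was also knocked down (Sirt1KO Otx2KD), so the latter shares the Sirt1 loss of its comparison group. The series set the change from naive to primed cells beside the changes that follow loss of Sirt1 and knockdown of Otx2. ESC and EpiLC differ in medium as well as in state, and these cannot be told apart. The labels give neither the deleted part of Sirt1, nor the means of the Otx2 knockdown, nor whether the knockout is 1 clone, nor whether replicates are separate cultures, so the p-values below cover no more than the differences among these samples, which may be technical.

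Carbonic anhydrases are zinc enzymes that interconvert carbon dioxide and water with bicarbonate and a proton. Cytosolic forms (Car2, Car13, Car7) act inside the cell, while Car4, held by a GPI anchor, and the single-pass proteins Car12 and Car14 carry their active site on the outer face of the cell membrane. Together with bicarbonate and proton transporters they buffer the cell and its surroundings and carry acid away. The values are FPKM (fragments scaled to transcript length and to library size), a scale per length, so that levels can be set beside each other between genes. Differences are in log2(FPKM + 1) and given ± SE; the added constant makes them too small for low genes. They come from a model over all 12 libraries, and levels are means ± SD with n = 3.

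The labels were checked first. Sirt1, an NAD-dependent deacetylase, stood at 25.8 ± 0.412 FPKM in wild-type ESC, 33.2 ± 1.24 in EpiLC, 15.5 ± 0.196 in Sirt1KO cells and 15.6 ± 0.492 in Sirt1KO Otx2KD cells. Otx2, a homeobox factor of the epiblast after implantation, stood at 7.38 ± 0.458, 100.2 ± 3.45, 27.0 ± 6.36 and 6.07 ± 0.401 FPKM in the same order. The Sirt1 value covers the whole gene, so transcript from outside the deleted part would be counted. No fragment counts were given. Depth estimated from the most frequent ratio of low values ranged from 0.767 to 1.33 times that of wild-type ESC replicate 1. Summed FPKM of 9 naive markers found ranged from 1201 to 1254 in wild-type ESC, 325 to 326 in EpiLC, 900 to 1029 in Sirt1KO and 1220 to 1232 in Sirt1KO Otx2KD, and that of 9 primed or formative markers (Otx2 among them) from 76.1 to 81.2, 806 to 826, 171 to 247 and 63.5 to 67.8. The 5 general pluripotency markers summed to between 982 and 1464 FPKM in the 12 libraries. Pou5f1 was the largest of them (group means of 604 to 660 FPKM). In wild-type ESC and EpiLC, Utf1 was at 36.8 and 412 FPKM and Lin28a at 20.6 and 195. Sox2 (263 and 155) and Sall4 (91.2 and 62.2) went the other way. From wild-type ESC to Sirt1KO, the naive markers Klf4 (54.4 to 108) and Tfcp2l1 (84.1 to 150) rose against their sum. The primed markers Zic2 (42.9 to 18.0) and Cdh2 (1.85 to 1.01) fell against theirs. Of the other cell types checked, primitive endoderm markers (8) summed to at most 6.34 FPKM in any library and erythroid markers (8 of 10 found) to at most 4.36. Trophoblast markers (7) summed to at most 86.9 with Prl3d1 at 0 in all, and neural markers (6 of 7 found) to at most 268. The trophoblast and neural sums were highest in wild-type ESC, where they were mostly Tfap2c and Tubb3.

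The makeup of the carbonic anhydrase RNA differed between the groups. Car13 was the most abundant member in wild-type ESC, Car4 in EpiLC and in Sirt1KO, and Car2 and Car13 together led in Sirt1KO Otx2KD. Summed over the 6 genes, the level was 26.6 ± 0.597 FPKM in wild-type ESC, 51.9 ± 1.49 in EpiLC, 41.5 ± 8.55 in Sirt1KO cells and 29.3 ± 0.404 in Sirt1KO Otx2KD cells. The cytosolic members made up 72.3% of that sum in wild-type ESC, 27.6% in EpiLC, 45.9% in Sirt1KO cells and 72.8% in Sirt1KO Otx2KD cells. Their summed level was 19.3 ± 0.360, 14.3 ± 0.389, 18.6 ± 0.933 and 21.3 ± 0.617 FPKM, while that of the membrane members was 7.36 ± 0.559, 37.6 ± 1.53, 22.9 ± 7.90 and 7.97 ± 0.453 FPKM. The membrane sum of wild-type ESC was nearly all Car12, and that of EpiLC mostly Car4. In bulk RNA, fewer cells with a transcript and less of it per cell cannot be told apart, so these sums say nothing of how many cells held each enzyme.

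**Figure D1:**
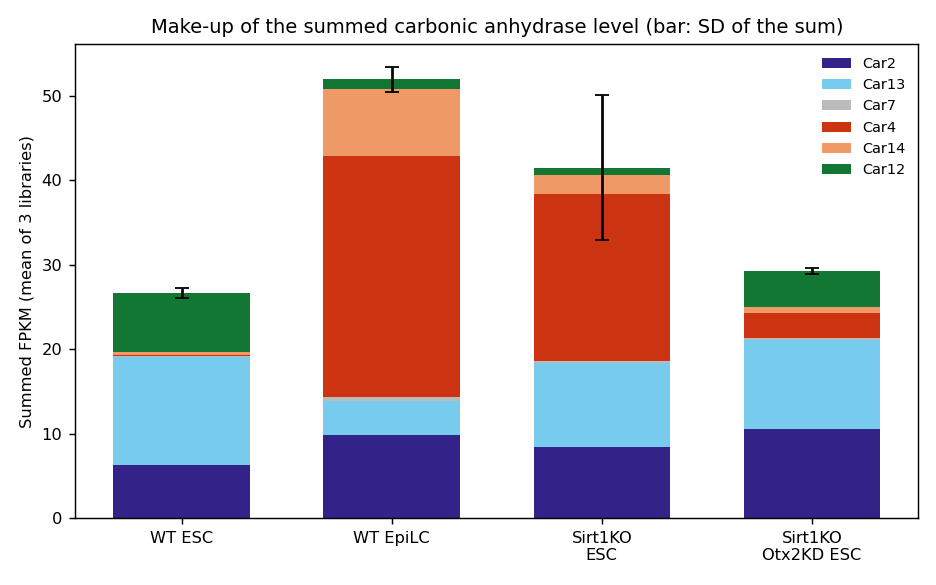
Stacked bars give the mean FPKM of each of the 6 carbonic anhydrases, summed, in the 4 groups (n = 3 libraries), and the black bar is the SD of the sum. Car4 takes 54.8% of the sum in EpiLC, 46.6% in Sirt1KO cells and 10.2% in Sirt1KO Otx2KD cells, and is barely visible in wild-type ESC.

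How many members stood apart was read against the whole table. The fit took named loci that reached 1 FPKM in 3 or more libraries (12320), and 5 of the 6 members were among them; Car7 was not. In EpiLC against wild-type ESC, 5 of these 5 members had values without overlap between the groups (3 higher, 2 lower), against 76.8% of all fitted loci, and limma called 74.6% of all loci at an adjusted p under 0.05. In Sirt1KO against wild-type ESC the count was 5 (3 higher, 2 lower), with 68.5% of all loci apart and 65% called. In Sirt1KO Otx2KD against Sirt1KO it was 4 (2 higher, 2 lower), with 67.2% apart and 62.6% called, and in Sirt1KO Otx2KD against wild-type ESC 5 (3 higher, 2 lower), with 61.3% apart and 53.9% called. Since the members were chosen on these contrasts, nothing is read from their counts. Car4 and Car14 passed the filter only through groups in which they were high, so they had to differ. The 3 comparisons with wild-type ESC share its 3 libraries.

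**Figure D2:**
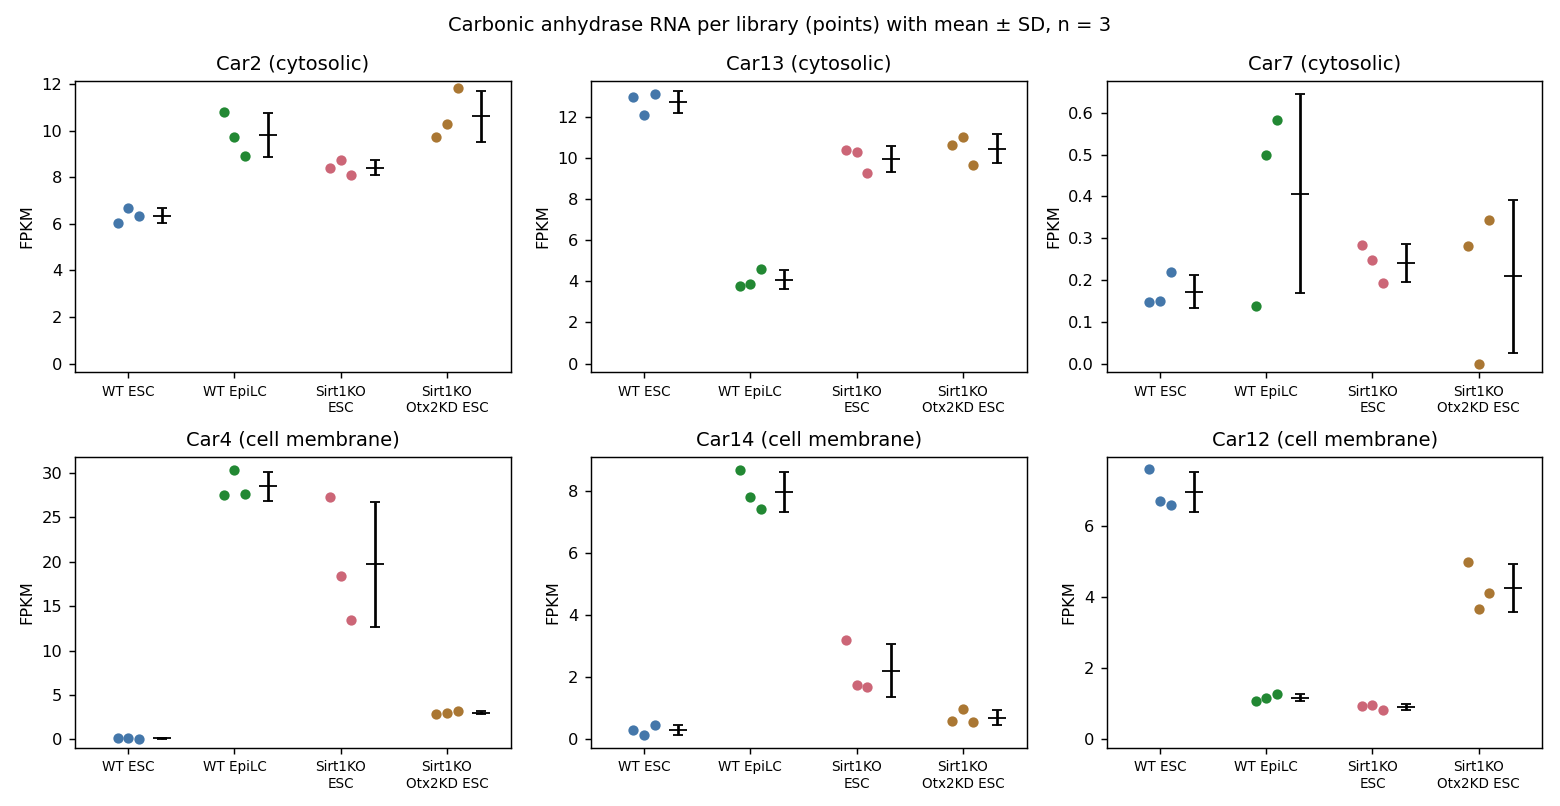
Each panel shows 1 carbonic anhydrase, with FPKM on a linear vertical axis of its own, the 3 libraries of each group as points, and the mean ± SD as a black cross. Car4 and Car14 are low in wild-type ESC and highest in EpiLC, Car12 is highest in wild-type ESC and lowest in Sirt1KO, Car13 is low in EpiLC alone, and Car7 stays below 0.6 FPKM.

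Car4, the GPI-anchored enzyme of the outer cell surface (XLOC_003371, mm9 chromosome 11, 84771256 to 84779556), had the widest range. Its FPKM was 0.0901, 0.183 and 0 in the 3 wild-type ESC libraries, and 27.5, 30.3 and 27.6 in EpiLC. Sirt1KO libraries had 27.3, 18.4 and 13.5 FPKM, those of Sirt1KO Otx2KD 2.88, 2.94 and 3.18. The order was EpiLC, Sirt1KO, Sirt1KO Otx2KD and wild-type ESC, and no library of a group overlapped the next group, although the highest Sirt1KO library (27.3) came close to the lowest of EpiLC (27.5). The log2 difference from wild-type ESC was 4.76 ± 0.18 in EpiLC, 4.20 ± 0.18 in Sirt1KO cells and 1.88 ± 0.18 in Sirt1KO Otx2KD cells, and that of Sirt1KO Otx2KD from Sirt1KO was -2.32 ± 0.18. With a pseudocount of 0.1 in place of 1, these 4 differences were 7.35, 6.76, 4.14 and -2.62, so the size against wild-type ESC is set largely by this constant. The step between low FPKM values implies 1, 2 and 0 Car4 fragments in the wild-type ESC libraries, 3 in all, against 1050 in EpiLC, 735 in Sirt1KO cells and 105 in Sirt1KO Otx2KD cells. For Car4 this step was checked on these 3 wild-type ESC values alone, so all its counts and the ratios from them rest on few values.

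As depth-scaled ratios with exact 95% intervals for counting error alone, Car4 in wild-type ESC was exceeded 318.6-fold in EpiLC (109 to 1547), 216-fold in Sirt1KO (73.7 to 1051) and 33.3-fold in Sirt1KO Otx2KD (11.1 to 164). The level in Sirt1KO Otx2KD was 0.154 times that of Sirt1KO (0.124 to 0.189). Knockdown of Otx2 in the knockout thus went with a Car4 level between those of the Sirt1KO and wild-type cells, near neither. Every comparison with wild-type ESC had a lowered median over the 1039 fitted loci of chromosome 11. EpiLC gave -0.46, Sirt1KO -0.49 and Sirt1KO Otx2KD -0.39, while all loci gave -0.02, 0.01 and -0.001. The 680 loci of chromosome 8 were raised instead, with medians of 0.40, 0.46 and 0.36 in this order. Sirt1KO Otx2KD against Sirt1KO gave 0.07 for chromosome 11 and -0.10 for chromosome 8. Wild-type ESC thus stood apart from the other groups on both chromosomes, and the cause was not tested. With each chromosome's median removed, the Car4 difference was 5.23 in EpiLC and 2.27 in Sirt1KO Otx2KD against wild-type ESC. The nearest named genes on either side differed by less. Pigw, an enzyme of GPI anchor synthesis 41370 bases away, differed by 0.51 in EpiLC (limma, adjusted p = 0.000323), by 0.18 in Sirt1KO (adjusted p = 0.123), and by -0.51 in Sirt1KO Otx2KD against Sirt1KO (adjusted p = 0.000525), each in the direction of Car4. Usp32, a ubiquitin protease 18407 bases away, differed by -0.70, -0.57 and -0.02 (limma, adjusted p = 3.33e-07, 4.31e-06 and 0.838).

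Car14, a single-pass membrane enzyme (XLOC_015987, mm9 chromosome 3, 95697919 to 95708607), followed the same order at a lower level. FPKM was 0.295, 0.137 and 0.466 in wild-type ESC, 8.69, 7.81 and 7.43 in EpiLC, 3.19, 1.75 and 1.69 in Sirt1KO cells, and 0.578, 0.982 and 0.542 in Sirt1KO Otx2KD cells. No neighbouring groups overlapped. Log2 differences were 2.79 ± 0.16 for EpiLC, 1.28 ± 0.16 for Sirt1KO and 0.39 ± 0.16 for Sirt1KO Otx2KD against wild-type ESC, and -0.90 ± 0.16 for Sirt1KO Otx2KD against Sirt1KO; with a pseudocount of 0.1 they were 4.42, 2.56, 1.05 and -1.51. After the knockdown Car14, like Car4, thus lay below Sirt1KO and above wild-type ESC. The deposited coordinates give Car14 and Aph1a, a gamma-secretase subunit, 1 and the same span, and whether strand was used in counting is not given, so the split of reads between them is uncertain. Aph1a was at 1.02 ± 0.113 FPKM in wild-type ESC, 0.485 ± 0.139 in EpiLC, 0.585 ± 0.254 in Sirt1KO cells and 0.874 ± 0.0225 in Sirt1KO Otx2KD cells, an order of means opposite to that of Car14. Gm129 lies 2065 bases from Car14 and differed in the same directions, by 0.77, 0.68 and -0.80 in EpiLC, Sirt1KO and Sirt1KO Otx2KD against Sirt1KO (limma, adjusted p = 5.87e-05, 0.000248 and 6.65e-05). Anp32e, a histone chaperone 24572 bases away, differed by 0.61, 0.15 and -0.28 (limma, adjusted p = 7.12e-10, 0.00133 and 5.92e-06).

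The promoter of Car14 is shown because its RNA and that of the homeobox factor Otx2 were high and low in the same groups, and because it was the only member promoter found to hold a searched motif. The 250 bases before the RefSeq transcript start are those of GRCm38.p6, chr3:95904686-95904935, minus strand, a later build than the mm9 of the expression files. Capitals mark TAATCC, the core bound by OTX-type homeodomains, and CACGT, the reverse complement of the hypoxia response core ACGTG.
Car14: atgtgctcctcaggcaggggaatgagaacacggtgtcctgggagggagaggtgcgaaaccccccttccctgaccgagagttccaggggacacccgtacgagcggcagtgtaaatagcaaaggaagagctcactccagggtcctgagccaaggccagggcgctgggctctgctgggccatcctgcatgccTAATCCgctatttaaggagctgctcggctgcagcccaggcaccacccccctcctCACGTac
The first base of TAATCC lies 61 bases before the start and that of CACGT 7 bases before it. Both strands were searched. TAATCC or GGATTA occurs in 6.25% of 32851 mouse promoter windows of this length, ACGTG or CACGT in 16.6%, and the octamer ATTTGCAT or ATGCAAAT, absent here, in 1.6%. The letters of none of the 3 motifs occur in the windows of Car4, Car7 (3 starts) or Car12, and Car2 and Car13 were not matched. Of the other carbonic anhydrases searched, Car5b holds GGATTA, 108 bases before its start. Its group means ranged only from 0.538 to 0.670 FPKM. The hypoxia response core occurs in windows of Car6, Car9 and Car10. Such a match describes the letters of a window and is neither a site nor a cause, and its absence says nothing of the factor.

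Car12, a single-pass membrane enzyme known as a target of the hypoxia response (XLOC_025395, mm9 chromosome 9, 66561493 to 66614652), was highest in wild-type ESC, where Car4 was lowest. FPKM was 7.62, 6.70 and 6.60 in wild-type ESC, 1.07, 1.16 and 1.27 in EpiLC, 0.940, 0.965 and 0.826 in Sirt1KO cells, and 5.01, 3.67 and 4.12 in Sirt1KO Otx2KD cells. Sirt1KO thus held the lowest level, just under that of EpiLC, and Sirt1KO Otx2KD lay nearer to wild-type ESC; no neighbouring groups overlapped. The log2 difference was -1.88 ± 0.10 in EpiLC, -2.06 ± 0.10 in Sirt1KO cells and -0.60 ± 0.10 in Sirt1KO Otx2KD cells against wild-type ESC, and 1.46 ± 0.10 in Sirt1KO Otx2KD against Sirt1KO. Markers of fibroblasts or feeder cells moved in a partly similar way. The 10 markers summed to 124 to 145 FPKM in wild-type ESC, 71.0 to 75.8 in EpiLC, 13.6 to 18.0 in Sirt1KO and 254 to 258 in Sirt1KO Otx2KD, with none at 0 in any group. Col1a1, the main fibroblast collagen among them, had a level of 38.2 ± 5.80 FPKM in wild-type ESC against 7.60 in EpiLC and 1.81 in Sirt1KO. The markers did not all move alike. From wild-type ESC to EpiLC, mean FPKM was higher for Thy1 (6.64 to 15.5), Twist1 (2.05 to 4.73), Pdgfra (0.409 to 0.852) and Dcn (4.95 to 5.46). It was lower for the rest. The part of such cells in the Car12 levels was not tested. The highest marker sum was in Sirt1KO Otx2KD and the highest Car12 level in wild-type ESC, while both were lowest in Sirt1KO. The trophoblast markers summed to 82.4 to 86.9 FPKM in wild-type ESC, 10.4 to 11.3 in EpiLC, 31.9 to 35.0 in Sirt1KO cells and 56.5 to 58.7 in Sirt1KO Otx2KD cells, and the neural markers to 249 to 268, 76.5 to 82.0, 131 to 141 and 176 to 187. Tfap2c made up most of the trophoblast sum (80.1 ± 2.70 FPKM in wild-type ESC) and Tubb3 most of the neural sum (206.5 ± 6.42). Whether the ESC themselves or other cells held these RNAs cannot be told from bulk RNA. The other trophoblast markers had means of at most 1.99 FPKM in wild-type ESC, with Cdx2 at 0.170, Elf5 at 0.103 and Gcm1 at 0.198. Other markers had other orders. Eomes was at 1.99 ± 0.164 FPKM in wild-type ESC against 3.56 ± 0.348 in Sirt1KO, and Neurod1 at 1.90 ± 0.152 against 12.9 ± 0.433 in EpiLC. The part of such cells in the Car12 levels was not tested either. The nearest fitted neighbour, Usp3, a ubiquitin protease 120588 bases away, differed by -0.07 in EpiLC (limma, adjusted p = 0.491) and by -0.45 in Sirt1KO (adjusted p = 0.000441).

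**Figure D3:**
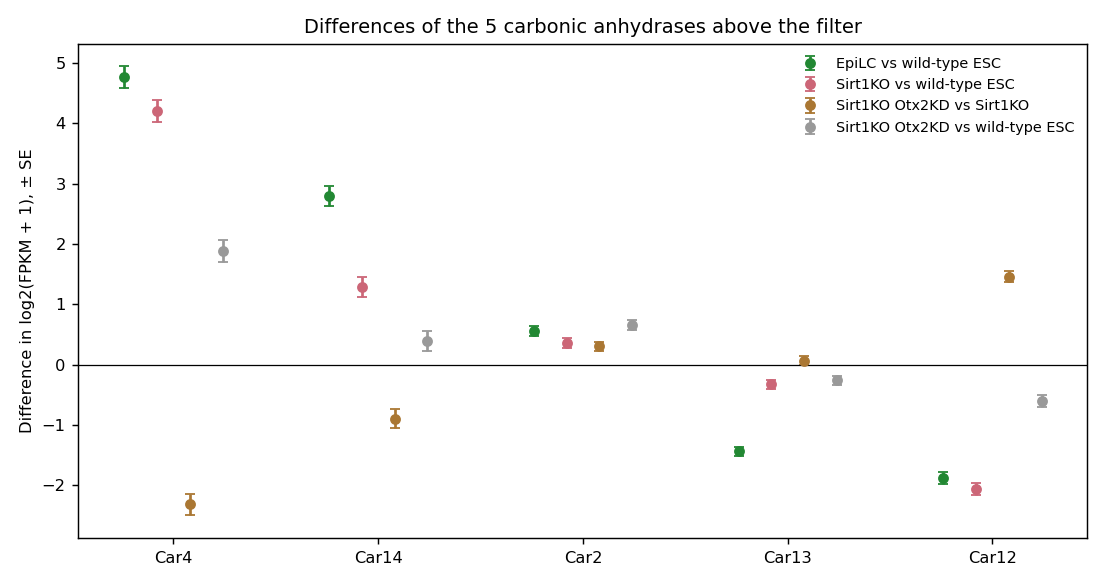
Points give the difference in log2(FPKM + 1) for the 5 carbonic anhydrases above the filter in the 4 comparisons, and bars the SE from the model over 12 libraries. Car4 runs from 4.76 in EpiLC to -2.32 for Sirt1KO Otx2KD against Sirt1KO, and Car12 is negative in the 3 comparisons with wild-type ESC and positive (1.46) for Sirt1KO Otx2KD against Sirt1KO.

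The cytosolic members varied over a smaller range and did not follow 1 pattern. Car13, a cytosolic enzyme (XLOC_015140, mm9 chromosome 3, 14641724 to 14663812), had 13.0, 12.1 and 13.1 FPKM in wild-type ESC against 3.79, 3.85 and 4.60 in EpiLC. It was at 10.4, 10.3 and 9.25 FPKM in Sirt1KO cells and 10.6, 11.0 and 9.68 in Sirt1KO Otx2KD cells, and these 2 groups overlapped. The log2 difference from wild-type ESC was -1.44 ± 0.07 in EpiLC, -0.32 ± 0.07 in Sirt1KO cells and -0.26 ± 0.07 in Sirt1KO Otx2KD cells, and that of Sirt1KO Otx2KD from Sirt1KO was 0.06 ± 0.07. Car13 was therefore the member whose level was low in EpiLC but lay nearer to that of wild-type ESC in both knockout groups.

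Car2, the fast and widely expressed cytosolic enzyme best known from red cells, kidney and osteoclasts (XLOC_015142, mm9 chromosome 3, 14886426 to 14900770), was lowest in wild-type ESC. Its FPKM was 6.04, 6.69 and 6.32 there, 10.8, 9.71 and 8.91 in EpiLC, 8.38, 8.75 and 8.12 in Sirt1KO cells, and 9.71, 10.3 and 11.8 in Sirt1KO Otx2KD cells. EpiLC and Sirt1KO Otx2KD overlapped, and every library of both lay above those of Sirt1KO. The log2 difference from wild-type ESC was 0.55 ± 0.08 in EpiLC, 0.36 ± 0.08 in Sirt1KO cells and 0.66 ± 0.08 in Sirt1KO Otx2KD cells, and Sirt1KO Otx2KD exceeded Sirt1KO by 0.30 ± 0.08. Unlike Car4, Car14 and Car12, Car2 was therefore further from wild-type ESC after the Otx2 knockdown than before it. The 8 erythroid markers found summed to 2.73 to 3.18 FPKM in wild-type ESC, 3.01 to 3.35 in EpiLC, 3.20 to 4.36 in Sirt1KO cells and 2.09 to 3.56 in Sirt1KO Otx2KD cells. Hbb-y was at 0 in EpiLC and in Sirt1KO, and Hba-x in Sirt1KO. Epor, the erythropoietin receptor, was at 0.668 ± 0.00963 FPKM in wild-type ESC, 1.58 ± 0.320 in EpiLC, 1.57 ± 0.330 in Sirt1KO cells and 0.903 ± 0.0483 in Sirt1KO Otx2KD cells. The part of these markers in the Car2 levels was not tested.

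Car2 and Car13 lie at the 2 ends of a cluster of 4 carbonic anhydrase genes on mm9 chromosome 3, 14641724 to 14900770, with no other locus in its 259 kb. Between them lie Car1, the other red cell enzyme, listed at 0 in all 12 libraries, and Car3, a cytosolic form of muscle and fat, at 0.0497, 0.525, 0.488 and 0.154 FPKM on average in wild-type ESC, EpiLC, Sirt1KO and Sirt1KO Otx2KD. Neighbours in the cluster thus differed in level by more than 10-fold and in direction between groups, Car13 being low and Car2 and Car3 high in EpiLC.

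Car7, a cytosolic enzyme best known from neurons (XLOC_024049, mm9 chromosome 8, 107064707 to 107074243), was near the limit of detection. Its FPKM was 0.148, 0.150 and 0.219 in wild-type ESC, 0.138, 0.499 and 0.584 in EpiLC, 0.283, 0.248 and 0.192 in Sirt1KO cells, and 0.282, 0 and 0.343 in Sirt1KO Otx2KD cells. All groups overlapped. The values imply 7 fragments in wild-type ESC, 18 in EpiLC, 11 in Sirt1KO cells and 10 in Sirt1KO Otx2KD cells. The depth-scaled ratio of EpiLC to wild-type ESC was 2.34 with a 95% interval of 0.933 to 6.63, which pools 3 libraries a group and covers counting error only.

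Otx2 and the membrane enzymes can be set side by side by library. The Sirt1KO library with the highest Otx2, replicate 1 (34.2 FPKM, against 24.6 and 22.2 in replicates 2 and 3), also had the highest Car4 (27.3) and Car14 (3.19) of its group. The same library was highest for other genes that were higher in EpiLC than in wild-type ESC. Dnmt3b, a DNA methyltransferase, was at 143 FPKM against 96.4 and 97.6, and Utf1 at 162 against 101 and 105. The growth factor Fgf5 was at 4.35 against 2.30 and 2.41. T, of the primed list, was instead lowest in this library, at 0.205 against 0.314 and 0.555. The part of this shift in the Car4 and Car14 levels was not tested. Without replicate 1, the Sirt1KO difference from wild-type ESC was 3.94 for Car4 and 1.07 for Car14, against 4.20 and 1.28 with all libraries. Between EpiLC and Sirt1KO, Otx2 was at 100.2 ± 3.45 against 27.0 ± 6.36 FPKM and Car12 at 1.17 ± 0.0979 against 0.910 ± 0.0743. Between Sirt1KO Otx2KD and wild-type ESC, Otx2 was at 6.07 ± 0.401 against 7.38 ± 0.458 FPKM and Car12 at 4.27 ± 0.682 against 6.97 ± 0.565.

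**Figure D4:**
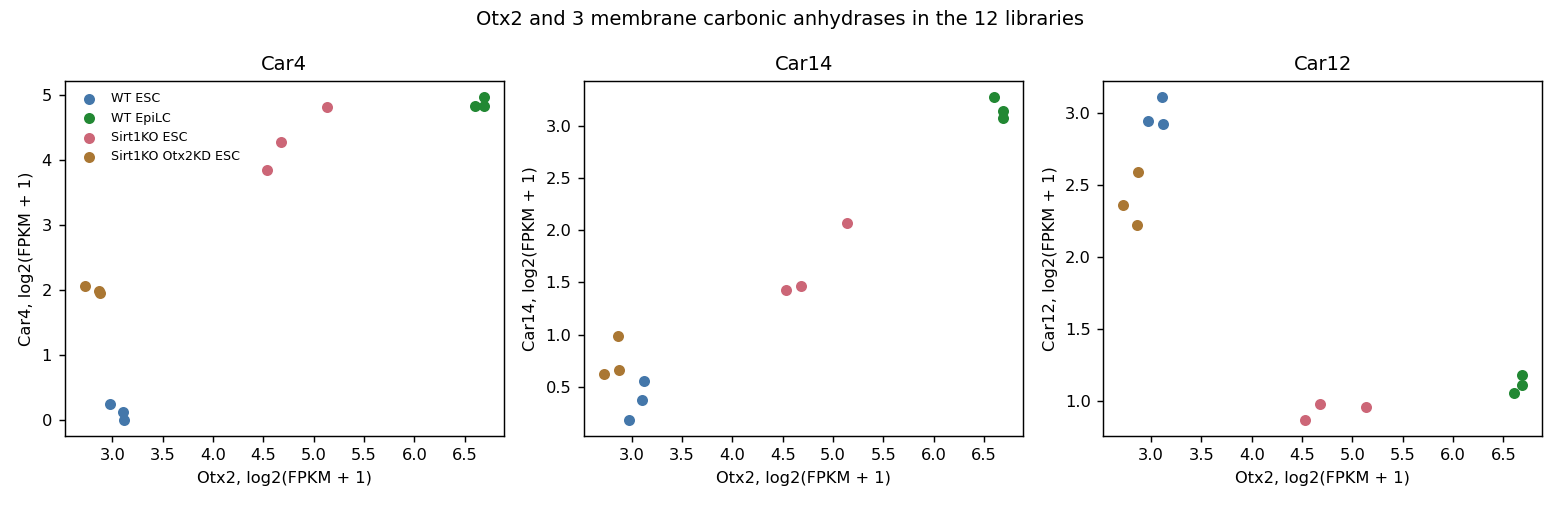
Each point is 1 of the 12 libraries, with Otx2 on the horizontal and Car4, Car14 or Car12 on the vertical axis, both as log2(FPKM + 1), colored by group. The libraries fall into groups, wild-type ESC and Sirt1KO Otx2KD both lie near 3 on the Otx2 axis and apart on the Car4 and Car12 axes, and EpiLC and Sirt1KO lie apart on the Otx2 axis and close together on that of Car12.

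Genes with the most similar profiles were found by Pearson r on log2(FPKM + 1) over the 12 libraries, among 10978 fitted loci. These libraries form 4 groups, so r mostly reflects the 4 group means, and it is given as a description. Nearest to Car4 were Arl4c (r = 0.995), a small GTPase, Dusp4 (0.995), a phosphatase of the ERK pathway, and Flna (0.994), an actin crosslinker. Nearest to Car14 were Gja1 (0.994), a connexin, Optn (0.993), an autophagy receptor, and Utf1 (0.990), a chromatin factor of pluripotent cells. Nearest to Car12 were Synj2 (0.994), an inositol phosphatase, and Slco5a1 (0.993), of the organic anion transporter family, the third locus carrying a date in place of its name. For Car13 they were Apoe (0.988), a lipid carrier, Anp32a (0.987) and Rps19bp1 (0.987), and for Car2 Lama5 (0.961), a basement membrane laminin, Itm2c (0.960) and Slc35e1 (0.949). Among the members themselves r was -0.965 between Car4 and Car12 and 0.888 between Car4 and Car14.

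The 6 members held 86.8%, 90.5%, 89.8% and 85.2% of the summed FPKM of all 16 carbonic anhydrase genes in wild-type ESC, EpiLC, Sirt1KO and Sirt1KO Otx2KD. Of the 10 others, Car8 and Car11, related proteins that lack catalytic activity, passed the filter. Car8 passed only through wild-type ESC and Sirt1KO Otx2KD, so its differences between these groups and EpiLC or Sirt1KO are given with no test. Car8 stood at 1.39 ± 0.219 FPKM in wild-type ESC, at 0.251 ± 0.0301 in EpiLC (log2 -0.93 ± 0.11) and at 0.620 ± 0.152 in Sirt1KO (-0.56 ± 0.11). In Sirt1KO Otx2KD it was at 1.60 ± 0.258 FPKM, above Sirt1KO (0.68 ± 0.11), and 0.12 from wild-type ESC (limma, adjusted p = 0.354). Like Car12, it was thus higher in wild-type ESC and Sirt1KO Otx2KD than in EpiLC and Sirt1KO. Car11 passed mainly through groups other than wild-type ESC, so its differences from wild-type ESC are likewise given with no test. It had 0.801 ± 0.298 FPKM in wild-type ESC, 1.63 ± 0.164 in EpiLC (0.56 ± 0.14) and 1.73 ± 0.418 in Sirt1KO (0.60 ± 0.14). In Sirt1KO Otx2KD it was at 1.24 ± 0.299 FPKM, which differed by -0.28 from Sirt1KO (limma, adjusted p = 0.0913) and by 0.32 from wild-type ESC.

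The remaining 8 were below the filter. Car10, a related protein without activity, was listed at 0 in all libraries, like Car1. The mitochondrial Car5a and Car5b had group means of 0.723 to 0.810 and 0.538 to 0.670 FPKM. Car9, the hypoxia-induced membrane form, had means of 0.151, 0.558, 0.130 and 0.282 FPKM in wild-type ESC, EpiLC, Sirt1KO and Sirt1KO Otx2KD, the secreted Car6 of 0.284, 0.825, 0.199 and 0.364, and the GPI-anchored Car15 of 0.0730, 0.294, 0.0654 and 0.0556. Car9, Car6 and Car15 thus had their highest mean in EpiLC, as did Car3, Car4, Car7 and Car14. These 3 levels rest on few implied fragments. The EpiLC libraries held 11, 11 and 10 for Car9, 8, 17 and 8 for Car6, and 3, 1 and 4 for Car15. Values of Car15 overlapped between EpiLC and wild-type ESC.

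Genes listed as bicarbonate transporters were counted next, and which ions each of them carries was not examined. Of 18 listed bicarbonate transporters in the files 9 were fitted, and in EpiLC 2 rose, 6 fell and 1 did not pass the test, with a median log2 difference of -0.42 against -0.02 over all loci. Over all loci, 35.8% rose and 38.8% fell in this comparison. Slc4a5, an electrogenic sodium bicarbonate cotransporter, fell from 14.3 to 2.47 FPKM (-2.14 ± 0.07, limma, adjusted p = 4.29e-12), while Slc4a7, an electroneutral one, rose from 6.12 to 23.4 FPKM (1.78 ± 0.06, adjusted p = 6.71e-12). Slc26a11, an anion exchanger on chromosome 11, fell by 1.16 ± 0.08 (limma, adjusted p = 1.75e-08), and by 0.69 with the medians of the chromosomes removed (adjusted p = 2.39e-06). In Sirt1KO 1 of the 9 rose, 4 fell and 4 did not pass (median -0.02 against 0.01), while 32.4% of all loci rose and 32.7% fell. Slc4a5 fell there to 2.57 FPKM (-2.10 ± 0.07, limma, adjusted p = 1.49e-11). In Sirt1KO Otx2KD against Sirt1KO 5 rose, 1 fell and 3 did not pass (median 0.59 against -0.01), beside 31.1% and 31.5% of all loci. Against wild-type ESC 3 rose, 4 fell and 2 did not pass (median 0.03 against 0.00), beside 27.1% and 26.8% of all loci. Slc4a5 remained below wild-type ESC there, by -1.39 ± 0.07 (limma, adjusted p = 2.42e-09).

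Of 6 genes for transport of protons with lactate in the files 4 were fitted; 2 rose and 1 fell in EpiLC, 3 rose and none fell in Sirt1KO, none rose and 3 fell in Sirt1KO Otx2KD against Sirt1KO, and 1 rose and 2 fell in Sirt1KO Otx2KD against wild-type ESC. Their medians were 0.50, 0.17, -0.56 and -0.19. Over all loci, the shares that rose and fell were 35.8% and 38.8% in EpiLC, 32.4% and 32.7% in Sirt1KO, 31.1% and 31.5% in Sirt1KO Otx2KD against Sirt1KO, and 27.1% and 26.8% against wild-type ESC, and the counts of this and the next lists, each of 8 fitted genes at most, stand beside these. Slc16a3, the lactate exporter MCT4 on chromosome 11, fell from 40.8 FPKM in Sirt1KO to 6.79 in Sirt1KO Otx2KD (-2.42 ± 0.07, limma, adjusted p = 9.49e-12). Emb, an accessory subunit of lactate transporters, rose in EpiLC from 36.5 to 132 FPKM (1.83 ± 0.06, limma, adjusted p = 5.46e-12). Of 14 sodium-proton exchangers, their regulators and proton pumps 7 were fitted, with 1 higher and 4 lower in EpiLC, 2 and 3 in Sirt1KO, and 2 and 2 in each of the others (medians -0.19, -0.07, -0.13 and -0.07). Among them Slc9a5, an exchanger on chromosome 8, where the median of 680 loci was 0.40, rose in EpiLC (1.69 ± 0.08, limma, adjusted p = 1.73e-10), and Slc9a3r2, a scaffold protein, fell (-1.51 ± 0.10, adjusted p = 5.4e-09).

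Of 7 channel genes linked to gas passage 3 were fitted, to be read beside the same shares over all loci; 2 rose and 1 fell in EpiLC and in Sirt1KO, 1 rose and 2 fell in Sirt1KO Otx2KD against Sirt1KO, and 1 rose against wild-type ESC (medians 0.55, 0.38, -0.42 and 0.06). Rhd, of the Rhesus family, rose in EpiLC (1.31 ± 0.13, limma, adjusted p = 5.95e-07). Rhcg, an ammonia channel, was higher in Sirt1KO Otx2KD than in Sirt1KO, at 2.20 against 0.305 FPKM (1.30 ± 0.09). Rhcg passed the filter only through Sirt1KO Otx2KD, where it was high, so this difference is given with no test. Rhbg passed only through EpiLC (mean 1.48 FPKM) and Sirt1KO (1.53), against 0.693 in wild-type ESC and 0.765 in Sirt1KO Otx2KD. Both genes are in the counts of this list, and Rhcg is the gene that rose against wild-type ESC. Nothing is therefore read from these channel counts. Of 10 genes for enzymes that use or sense bicarbonate 8 were fitted, with 5 higher and 3 lower in EpiLC, 2 and 4 in Sirt1KO, 4 and 2 in Sirt1KO Otx2KD against Sirt1KO and 2 and 2 against wild-type ESC (medians 0.34, -0.16, 0.18 and 0.00). Acacb, an acetyl-CoA carboxylase, rose from 3.11 to 8.09 FPKM with the knockdown (1.15 ± 0.07, limma, adjusted p = 8.3e-09).

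Since Car9 and Car12 are known hypoxia targets, 15 other genes of the hypoxia response, its factors Hif1a and Epas1 among them, were counted, and all were fitted. In EpiLC 5 rose and 7 fell, in Sirt1KO 2 rose and 11 fell, in Sirt1KO Otx2KD 5 rose and 5 fell against Sirt1KO, and 3 rose and 10 fell against wild-type ESC (medians -0.21, -0.46, -0.06 and -0.64). Over all loci 35.8% rose and 38.8% fell in EpiLC, and 32.4% and 32.7% in Sirt1KO. For Sirt1KO Otx2KD these shares were 31.1% and 31.5% against Sirt1KO, and 27.1% and 26.8% against wild-type ESC. The list did not move as 1 block. Pdk1, a kinase that restrains pyruvate oxidation, rose from 5.68 FPKM in wild-type ESC to 69.6 in EpiLC (3.40 ± 0.12, limma, adjusted p = 4.49e-11) and 17.9 in Sirt1KO (1.49 ± 0.12, adjusted p = 2.2e-07), and was at 3.32 in Sirt1KO Otx2KD (-2.14 ± 0.12 against Sirt1KO, adjusted p = 1.19e-08). Its order was thus that of Car4 and Car14 except for the lowest place, which Sirt1KO Otx2KD held. Egln3, an oxygen-sensing prolyl hydroxylase, rose in EpiLC (1.22 ± 0.08, limma, adjusted p = 4.86e-09) and fell in Sirt1KO (-1.68 ± 0.08, adjusted p = 4.12e-10). Ankrd37, on chromosome 8, fell in both (-1.53 and -1.41, limma, adjusted p = 9.17e-10 and 4.34e-09). Slc2a1, a glucose transporter, fell with the knockdown from 189 to 88.0 FPKM (-1.09 ± 0.05, limma, adjusted p = 1.27e-09).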

How the data were processed

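The authors deposited 1 table per library with FPKM per locus. Per the submitters' processing notes, TopHat, Cufflinks and Cuffdiff were used with mm9, with no versions given; how library sizes were set and whether strand was used are not given in the sources used here. Libraries were grouped by their titles. Starts are counted from 0 in the files and from 1 here. The 4778 unnamed loci hold most of the FPKM sum and were left out. Named loci that reached an FPKM of 1 in 3 or more of 12 libraries (12320) were fitted as log2(FPKM + 1) with a mean per group in limma 3.58.1 (R 4.3.3, trend and robust, 8 residual degrees of freedom), and called at a Benjamini-Hochberg adjusted p under 0.05 over all loci. The fit was tested on simulated data. Relative depth was estimated from the most frequent ratio of values below 0.1 FPKM. Fragments were implied where the low values of a gene, scaled by depth, were whole multiples of 1 step. Promoters are RefSeq's (GRCm38.p6); 4 of 6 members matched. Members and lists were chosen with earlier results of these data known. Named were all members, Sirt1, Otx2, all other carbonic anhydrases, neighbours, the 3 most similar loci, and per list and comparison up to 3 called genes with the largest moderated t, a log2 difference of at least 1 and no overlap, of which the text gives examples. Alternatives were another pseudocount, filter, scaling or model, unnamed loci, chromosome medians removed, the replicate number as a block, and each library left out. No 2 libraries were identical.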

Additional observations from a re-analysis of the deposited data

How the results depend on the processing

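No member difference changed sign under any alternative run. The counts of members apart were the same under each, except that Sirt1KO Otx2KD against Sirt1KO had 5 without Sirt1KO Otx2KD replicate 3, where Car13 no longer overlapped. Under the alternatives, 227 member differences stayed within the replicate spread and 13 moved by more, 11 with a pseudocount of 0.1 and 2 (Car4) with chromosome medians removed. With chromosome medians removed, Slc16a3 in Sirt1KO against wild-type ESC reversed from -0.09 to 0.40 (limma, adjusted p = 0.00017), and Slc9a5 in Sirt1KO Otx2KD against wild-type ESC from 0.12 to -0.24 (adjusted p = 0.0228). Other scalings moved the median of all loci by less than 0.1 log2 units. Same-numbered replicates were not treated as paired, and the labels do not say whether they were. Their deviations correlated between -0.1065 and 0.1702 over 18 pairs, and 8 of 36 best matches had the same number, which cannot settle it. With the replicate block, 9080, 7893, 7567 and 6500 loci were called in EpiLC, Sirt1KO, Sirt1KO Otx2KD against Sirt1KO, and Sirt1KO Otx2KD against wild-type ESC, against 9190, 8010, 7707 and 6639 without it, and 41, 36, 32 and 30 list genes against 41, 37, 33 and 32. Depth limits Car7 and the wild-type ESC level of Car4, which rest on few implied fragments.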
